A study of Arabidopsis thaliana with 6 samples.

Results

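The genes described here encode proteins of the large (60S) subunit of the cytosolic ribosome of Arabidopsis thaliana. They were given by locus code: 60 genes of 25 proteins, each protein with several related gene copies (paralogs) in the genome. How alike the copies are was not examined. A gene was kept when an Affymetrix ATH1 probe set named it and no other gene, and 34 of the 60 were, among 13333 genes so measured on these arrays. None of the 34 had more than 1 probe set, and 0 of these probe sets carried the name ending (_s_at or _x_at) of those that can match several transcripts; binding of a paralog's RNA to them was not tested. Of the other 26, 5 stood on probe sets that name several genes and 21 were matched to no probe set here; no value is given for them. The 34 genes belong to 17 proteins, and for 11 of these proteins 2 or more paralogs were measured (28 genes in all). The locus codes were assigned to proteins from general knowledge; RefSeq gives 1 of the 34 a symbol other than its locus code, PGY1.

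The study compared 2 groups of 3 arrays, each array with its own RNA sample. The first held G2/M cells that were isolated by fluorescence-activated cell sorting from roots carrying a CYCB1;1-GFP reporter, called sorted cells below. The second held complete root meristems that were cut out under a binocular microscope, called meristems below; the labels name no reporter for them. All samples were accession Col-0, grown upright on agar medium with Murashige and Skoog salts and sucrose, and no plant age is given. CYCB1;1 is a B-type cyclin made around mitosis, so the reporter marks cells in that stage, while a meristem holds cells of every stage and tissue layer. Sorting and dissection also differ as handling, and the 2 cannot be told apart from the cell stage in this design. Nor can a change in the share of some cell type be told from a change of RNA per cell.

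Ribosomal protein genes are among the most strongly transcribed genes of dividing plant cells, because each new cell needs a full set of ribosomes. The large subunit joins amino acids and holds the tunnel through which the new peptide leaves. Arabidopsis keeps more than 1 active copy of nearly every one of these genes, and paralogs of 1 protein can be used to different degrees in different tissues and stages.

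The deposited values are log2 levels from GCRMA, which corrects background and normalizes the arrays to each other. They ran from 2.27 to 14.2, and a difference of 1 is a 2-fold change. Replicate arrays of the meristems correlated at 0.996 to 0.997 and those of the sorted cells at 0.967 to 0.989 (Pearson's r across 22746 probe sets). All 11 measured mitotic markers were higher in the sorted cells (differences of 1.20 to 2.73), a list chosen with earlier results of these data known and so no independent check of the sort, and their median level was 8.30 to 8.70 in the sorted arrays, against 6.59 to 6.71 in the meristem arrays. Other genes moved with the groups too. All 4 measured heat shock genes and all 7 rapid stress genes were higher in the sorted cells, both cortex markers were lower, and the root hair gene EXPA7 stood at 7.07, 2.42 and 2.69 in sorted replicates 1, 2 and 3, against 2.27, 2.29 and 2.27 in the meristems. With the replicate number as a block, 0 of the 11 mitotic markers, 1 of the 4 heat shock genes, 3 of the 7 stress genes and 1 of the 2 cortex markers were called. The poly-A spike-in probe sets averaged 5.81, 3.13 and 2.97 in the sorted replicates, against 7.27, 6.72 and 6.24 in the meristems, so sorted replicates 2 and 3 differ from all other arrays in this. The part of these differences in the values below was not tested.

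The probe sets of the 60S ribosomal protein genes gave very high signals that were nearly equal in the sorted cells and the meristems. A probe set's level depends on its own probes as well as on the RNA, so a level here is a signal on the array and not a measure that orders the genes. Of the 34 genes, 33 had a mean level between 10.75 and 13.82, which places each of them at percentile 97.9 or higher of the tested probe sets, and 25 of them were among the 207 probe sets at or above a level of 12. For 28 of the 33 the difference, sorted cells minus meristems, was smaller than 0.2 log2 in either direction. The median difference over the 34 genes was 0.10 log2, beside 0.02 over the 11503 probe sets that were brighter than the median of all values. Differences were above 0 for 26 genes, below 0 for 6 and exactly 0 for 2. Of the 11503 brighter probe sets 5947 were above 0, 5520 below 0 and 36 at 0. The differences of the 34 genes ran from -0.09 for AT4G15000 (L27) to 0.43 for AT1G80750 (L7).

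1 gene passed the test and was higher in the sorted cells, and 0 were lower (limma, Benjamini-Hochberg adjusted p under 0.05 over all probe sets). Over all 22746 probe sets 11.5% were called, 4.44% as higher and 7.06% as lower, so the count for these genes is not above that of the array as a whole. At an unadjusted p under 0.05, 12 of the 34 (35.3%) were higher and 1 was lower, against 11.3% and 13.6% of all probe sets. Of the 11503 brighter probe sets 2300 were higher and 2666 lower at that threshold. None of these shares is matched to the level of the 34 genes. In 12 genes (35.3%) every sorted array lay above every meristem array and in 1 every sorted array lay below, against 14.4% and 16.3% of all probe sets; for the other 21 the groups overlapped. Among the 11503 brighter probe sets 24.3% had every sorted array above every meristem array. The called gene, AT1G08360, lost its call with the replicate number as a block (0 called; adjusted p = 0.0630), with a trended robust prior (0.157), in the fit over the brighter probe sets alone (0.175) and when any 1 array other than sorted replicate 1 was left out (0.0668 to 0.105). With the presence of spike-ins as a block, which sets sorted replicate 1 alone against the meristems, its difference was 0.13 log2 (adjusted p = 0.0580).

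The spread between replicates was small, as it was for other probe sets at these levels. Over the 33 expressed genes the root mean square SD was 0.09 log2 among sorted arrays and 0.06 log2 among meristem arrays (n = 3 each). Over all probe sets it was 0.18 and 0.09 at a level of 11 to 12, 0.09 and 0.06 at 12 to 13, and 0.06 and 0.05 at 13 or more. The 95% intervals of the fitted differences reached no higher than 0.76 and no lower than -0.22, and for 29 of the 33 genes they lay within 0.5 log2 either way. The 3 sorted arrays did not stand equally far from the meristems. Sorted replicates 1, 2 and 3 exceeded the mean of the meristems by a median of 0.02, 0.11 and 0.09 log2 over the 34 genes. The order was the same over the 11503 brighter probe sets (-0.05, 0.08 and 0.01). Sorted replicate 1 was the lowest or tied for the lowest of the 3 in 30 of the 33 expressed genes. Without sorted replicate 1 the count of genes called higher was 5, while 1752 of all 22746 probe sets were called higher. Without sorted replicate 2 the counts were 0 of these genes and 822 of all probe sets, against 1009 with all arrays. Leaving out sorted replicate 3 or meristem replicate 1 or 2 also gave 0 of these genes, and leaving out meristem replicate 3 gave 1.

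**Figure D1:**
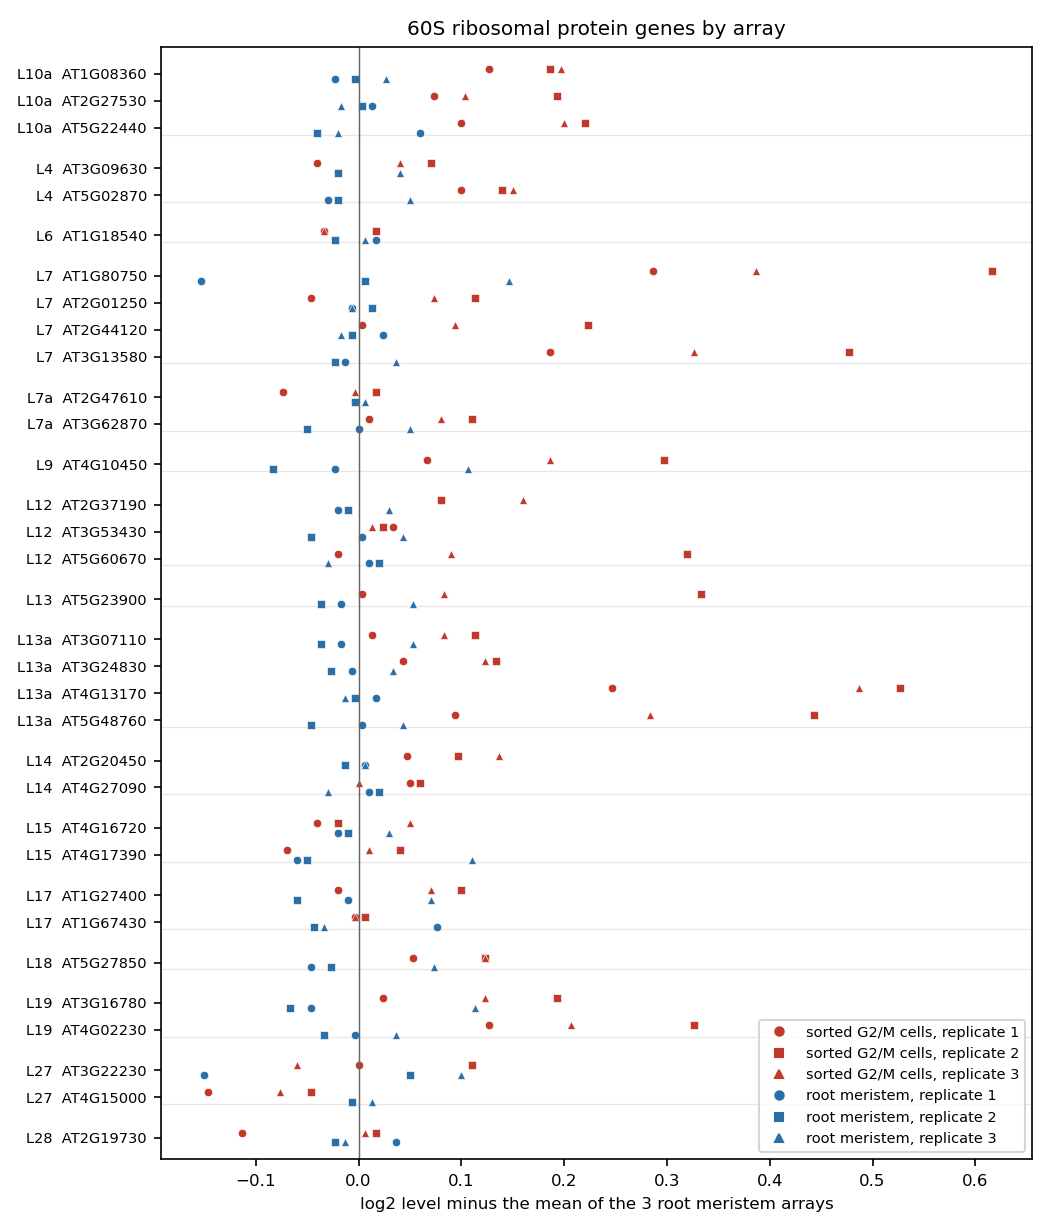
Level of each of the 33 expressed 60S ribosomal protein genes on each array, as the log2 level minus the mean of the 3 meristem arrays (x axis), with genes grouped by protein down the page and sorted cells drawn above meristems in each row. Most sorted values lie within 0.2 of the meristem mean, and AT1G80750 (L7), AT3G13580 (L7), AT4G13170 (L13a) and AT5G48760 (L13a) stand farthest to the right.

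L10a forms the mobile stalk beside the site where spent transfer RNA leaves the ribosome. All 3 measured L10a paralogs had every sorted array above every meristem array. AT1G08360 stood at 12.97, 13.03 and 13.04 in the sorted replicates, against 12.82, 12.84 and 12.87 in the meristems. It averaged 13.01 ± 0.04 in sorted cells and 12.84 ± 0.03 in meristems (n = 3 each, SD), a rise of 0.17 log2 (SE 0.03, adjusted p = 0.0240) or 1.13-fold. It was the 1 called gene among the 34, and the arrays of each group lay close together. PGY1 (AT2G27530), known from mutants that change leaf polarity, had 12.38, 12.50 and 12.41 in the sorted cells, against 12.32, 12.31 and 12.29 in the meristems, and was not called (0.12 log2, SE 0.04, adjusted p = 0.115). The third paralog, AT5G22440, differed by as much as AT1G08360 (0.17 log2) but with a larger error (SE 0.05, adjusted p = 0.0961).

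L7 showed the widest spread among its paralogs, with 4 measured genes and differences from 0.05 to 0.43 log2. The upper end was set by AT1G80750, which had the lowest mean level of the 33 expressed genes (10.75). Without it the L7 differences ran from 0.05 to 0.33 log2, beside 0.07 to 0.42 for L13a. AT1G80750 stood at 10.82, 11.15 and 10.92 in the sorted cells, against 10.38, 10.54 and 10.68 in the meristems. The groups did not overlap, but both varied, with means of 10.96 ± 0.17 in sorted cells and 10.53 ± 0.15 in meristems (n = 3 each, SD). Its difference of 0.43 log2 (SE 0.12, 95% interval 0.10 to 0.76) was the largest of the 34 and was not called (adjusted p = 0.118). AT3G13580 had 11.62, 11.91 and 11.76 in the sorted cells, against 11.42, 11.41 and 11.47 in the meristems, again without overlap (0.33 log2, SE 0.08, adjusted p = 0.0831).

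The other 2 L7 genes differed by 0.05 and 0.11 log2. AT2G01250 had 12.83, 12.99 and 12.95 in the sorted cells, against 12.87, 12.89 and 12.87 in the meristems, with overlapping groups (SE 0.05, adjusted p = 0.621). AT2G44120 had 12.59, 12.81 and 12.68 in the sorted cells, against 12.61, 12.58 and 12.57 in the meristems, again with overlap (SE 0.06, adjusted p = 0.408). In both genes sorted replicate 1 lay among or below the meristem values.

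L13a, which in human cells is also known to leave the ribosome and silence translation of certain messages, gave the same kind of contrast. AT4G13170 stood at 11.41, 11.69 and 11.65 in the sorted cells, against 11.18, 11.16 and 11.15 in the meristems. Every sorted array was at least as far above the meristems as their whole range, and the means were 11.58 ± 0.15 in sorted cells and 11.16 ± 0.02 in meristems (n = 3 each, SD). The difference of 0.42 log2 (SE 0.08, 95% interval 0.20 to 0.64), or 1.34-fold, lay just outside the threshold (adjusted p = 0.0504). The gene was called in the fit over probe sets above the median level (adjusted p = 0.0294), with either centring, without the probe sets that can match several transcripts (0.0498) and without sorted replicate 1 (0.51 log2, adjusted p = 0.00545). It was not called with the trended robust prior (adjusted p = 0.0992), with the replicate block (0.173) or when any 1 of the other 5 arrays was left out (0.110 to 0.172). The spike-in block gave 0.25 log2 (adjusted p = 0.0150), which again sets sorted replicate 1 alone against the meristems.

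Among the other L13a genes, AT5G48760 differed by 0.27 log2 (SE 0.10, adjusted p = 0.192) and its groups did not overlap. The remaining pair differed by 0.07 and 0.10 log2. AT3G07110 had 12.87, 12.97 and 12.94 in the sorted cells, against 12.84, 12.82 and 12.91 in the meristems (SE 0.04, adjusted p = 0.377). AT3G24830 had 12.70, 12.79 and 12.78 in the sorted cells, against 12.65, 12.63 and 12.69 in the meristems (SE 0.03, adjusted p = 0.147).

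The 4 measured genes of the peptide exit tunnel proteins L4 and L17 differed by 0.00 to 0.13 log2. For L4, AT5G02870 had 12.83, 12.87 and 12.88 in the sorted cells, against 12.70, 12.71 and 12.78 in the meristems, without overlap (0.13 log2, SE 0.03, adjusted p = 0.0607), while AT3G09630 differed by 0.02 log2 (adjusted p = 0.827). For L17, AT1G67430 had 13.82, 13.83 and 13.82 in the sorted cells, against 13.90, 13.78 and 13.79 in the meristems, and a difference of 0.00 log2 (95% interval -0.10 to 0.10). Its paralog AT1G27400 differed by 0.05 log2 (adjusted p = 0.624).

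L12 lies at the base of the stalk that receives the elongation factors, and its 3 paralogs differed by 0.02 log2 (AT3G53430), 0.11 log2 (AT2G37190) and 0.13 log2 (AT5G60670), none of them called. L19 takes part in a bridge to the small subunit. Its gene AT4G02230 stood at 11.63, 11.83 and 11.71 in the sorted cells, against 11.50, 11.47 and 11.54 in the meristems, without overlap (0.22 log2, SE 0.06, adjusted p = 0.0979), and AT3G16780 differed by 0.11 log2 (adjusted p = 0.458).

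The 8 genes with a difference at or below 0 were spread over 7 proteins (L6, L7a, L8, L15, L17, L27 and L28). For L27, AT4G15000 was the single gene with every sorted array below every meristem array: 12.48, 12.58 and 12.55 in the sorted cells, against 12.62, 12.62 and 12.64 in the meristems (-0.09 log2, SE 0.03, adjusted p = 0.149). It was singled out after its values were seen. Its paralog AT3G22230 differed by 0.02 log2 with overlapping groups. Both L15 genes lay at 0 within their error (AT4G16720 at -0.00333 and AT4G17390 at -0.00667 log2), as did AT1G18540 of L6 (-0.02 log2), AT2G47610 of L7a (-0.02 log2) and AT2G19730 of L28 (-0.03 log2), a protein that budding yeast lacks. AT3G62870, the other L7a gene, differed by 0.07 log2. L27 and L7a were the 2 proteins with paralogs on both sides of 0.

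The remaining genes fell inside the same range. The L14 genes AT2G20450 and AT4G27090 differed by 0.09 and 0.04 log2, AT5G27850 of L18 by 0.10, AT5G23900 of L13 by 0.14 and AT4G10450 of L9 by 0.18 (adjusted p from 0.105 to 0.515). L8 lies near the centre that joins amino acids, and its 1 measured paralog, AT3G51190, was the exception in level: it read 2.30 on all 6 arrays, next to the lowest value in the table (2.27), and so gave no difference. The other L8 genes listed were not analysed here.

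Differences were larger where the probe set's signal was lower. Over the 33 expressed genes the difference and the mean level had a Pearson correlation of -0.78 and a Spearman correlation of -0.64, across genes of the same 6 arrays, which are not independent. The 7 genes at a level of 11 to 12 had a median difference of 0.22 log2, the 19 at 12 to 13 one of 0.07, and the 6 at 13 or more one of 0.02. Over the array as a whole the size of the differences fell with level too, but their signed median did not fall with it. The median size of the difference over all probe sets was 0.21 log2 at a level of 11 to 12, 0.10 at 12 to 13 and 0.04 at 13 or more (205, 157 and 50 probe sets), with medians of the signed difference of 0.01, 0.05 and 0.02. Probe sets near the top of the scale thus differed less between the groups, 60S genes or not. All 7 genes at 11 to 12 had differences above 0.

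**Figure D2:**
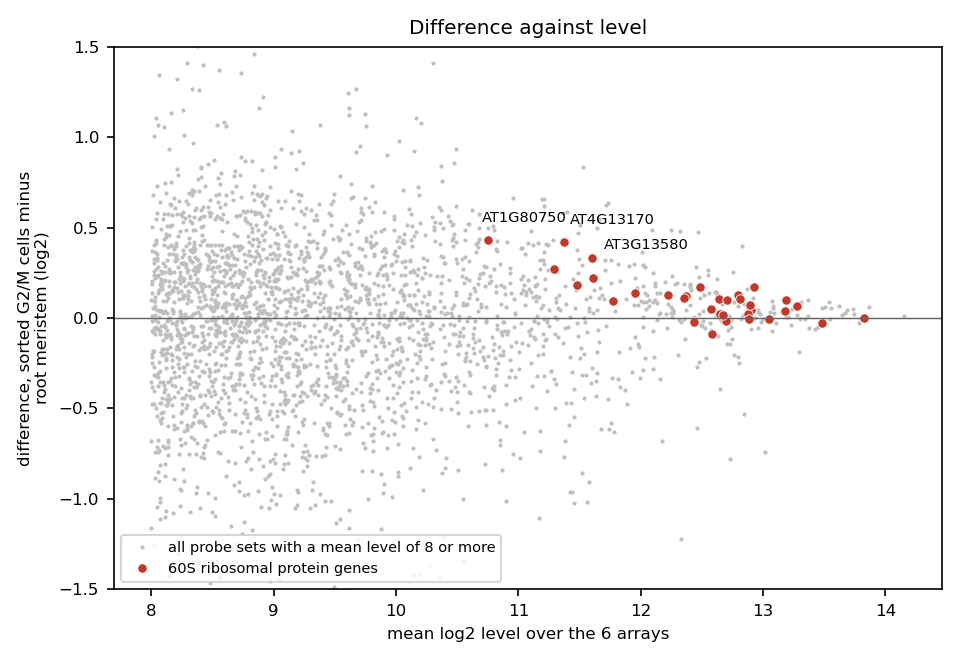
Difference between sorted cells and meristems (y axis, log2) against the mean level over the 6 arrays (x axis, log2), for the 33 expressed 60S genes (red) and all 2775 probe sets at a mean level of 8 or more (grey). The 127 grey probe sets beyond 1.5 log2 either way are not drawn, and the cloud narrows as the level rises, with the 60S genes from 0.43 at the dim end to near 0 at the bright end.

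Paralogs of 1 protein were then compared within each array, as the level of one minus the level of the other. In the change of this difference between the groups the probes' own strength cancels only where it adds the same amount at every level. Whether it does was not tested, and a response that varies with level would not cancel. The 11 proteins gave 25 pairs, which share genes. The gene with the larger difference was written first, so the change is positive by construction, and it ran from 0.00333 to 0.38 log2 with a median of 0.11. In 14 pairs the values of the 2 groups did not overlap, and for these a two-sided exact permutation test gave p = 0.1, the smallest that 3 arrays against 3 can give; with same-numbered arrays kept as pairs there are 8 arrangements and the smallest p was 0.25. The groups did not overlap either in 56.8% of all 116886 pairs of the 484 probe sets at these levels, so 14 of 25 is close to that share. The median size of the change over all those pairs was 0.24 log2, against 0.11 for the paralogs. The 484 probe sets span the genes' range of levels but were not matched to them in level. Of the 33 expressed genes 25 lay at a level of 12 or more, which 207 probe sets of the whole array reached. Sizes of difference fell with level, so neither comparison is between probe sets of like level.

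The 6 pairs with the largest change all came from L7 and L13a. In each of them the gene written first had the lower mean level, as in 19 of all 25 pairs. Differences were larger at lower levels among these genes, and the part of that trend in these changes was not tested. For L7, AT1G80750 minus AT2G01250 was -2.01, -1.84 and -2.03 in the sorted cells, against -2.49, -2.35 and -2.19 in the meristems, a change of 0.38 log2 or a 1.30-fold higher ratio in the sorted cells. AT1G80750 minus AT2G44120 was -1.77, -1.66 and -1.76 in the sorted cells, against -2.23, -2.04 and -1.89 in the meristems, a change of 0.32 log2. In both pairs the meristem arrays varied more than the sorted arrays. AT3G13580 minus AT2G01250 averaged -1.16 ± 0.07 in sorted cells and -1.44 ± 0.04 in meristems (n = 3 each, SD). AT3G13580 minus AT2G44120 averaged -0.93 ± 0.04 in sorted cells and -1.15 ± 0.05 in meristems (n = 3 each, SD). In these 4 pairs the difference between the paralogs was smaller in size in every sorted array than in any meristem array. In the other 2 of the 6 L7 pairs, AT1G80750 minus AT3G13580 and AT2G44120 minus AT2G01250, the groups overlapped (changes of 0.10 and 0.06 log2).

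For L13a, AT4G13170 minus AT3G07110 was -1.46, -1.28 and -1.29 in the sorted cells, against -1.66, -1.66 and -1.76 in the meristems, a change of 0.35 log2 or 1.27-fold. AT4G13170 minus AT3G24830 was -1.29, -1.10 and -1.13 in the sorted cells, against -1.47, -1.47 and -1.54 in the meristems, a change of 0.32 log2. Sorted replicate 1 lay nearest to the meristems in both. At the other end, the L15 pair changed by 0.00333 log2 and AT5G22440 minus AT1G08360 of L10a by the same amount (p = 1 for each, exact permutation test).

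**Figure D3:**
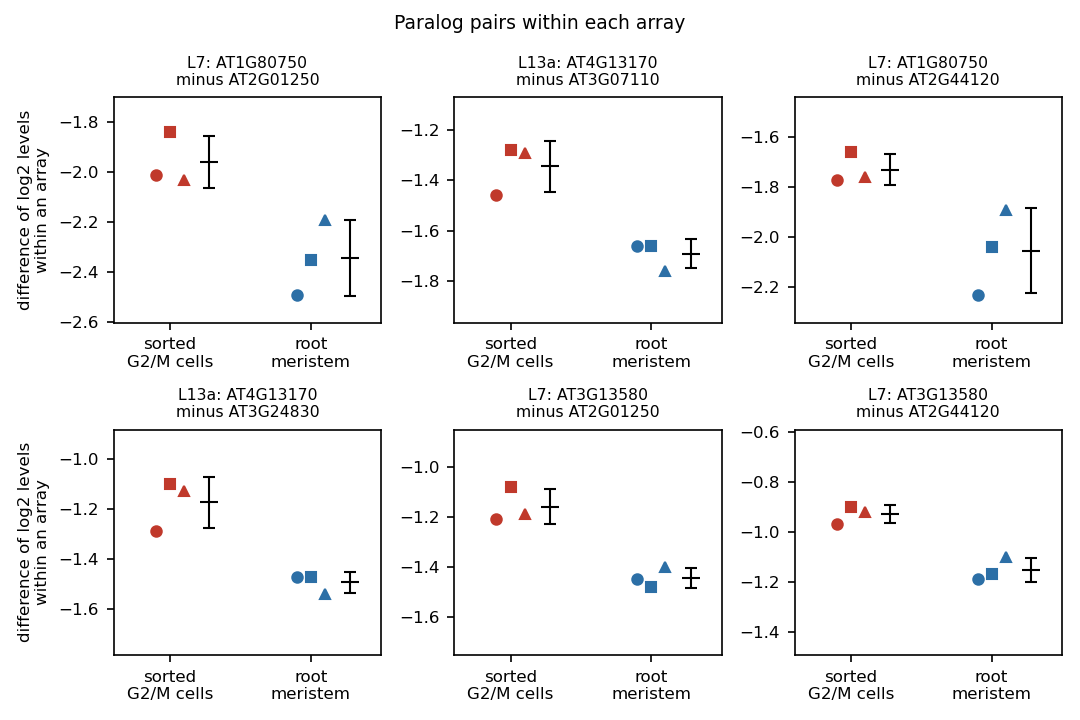
Level of one paralog minus level of another within each array (y axis, log2) for the 6 pairs with the largest change, sorted cells left and meristems right; each panel spans the same height. Points are arrays (circle, square and triangle for replicates 1, 2 and 3) and bars are the mean and SD of 3 arrays, and in every panel the sorted values lie above the meristem values.

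Other genes of the ribosome and of its assembly were read from the same fit, in which 4.44% of all probe sets were called higher; differences between the lists were not tested. Of 50 further 60S genes 1 was higher and 0 lower, with a median difference of 0.04 log2. Differences were above 0 for 39 of these 50, below 0 for 9 and exactly 0 for 2. With an unadjusted p under 0.05 as the threshold, 9 of these 50 were higher and 1 was lower. The called gene, AT4G25890, had 10.36, 10.47 and 10.36 in the sorted cells, against 10.14, 10.12 and 10.21 in the meristems (0.24 log2, SE 0.04, adjusted p = 0.0400). Of 48 genes of the small (40S) subunit 3 were higher and 0 lower, with a median of 0.06 log2. At the unadjusted threshold 13 of these 48 were higher and 0 lower. In 17 of them every sorted array lay above every meristem array, and in 1 every sorted array lay below. AT5G59240 had 9.67, 10.17 and 9.89 in the sorted cells, against 8.74, 8.82 and 8.97 in the meristems, a rise of 1.07 log2 (SE 0.15, adjusted p = 0.0221), more than any of the 34 large-subunit genes; AT3G04920 rose by 0.18 and AT5G27700 by 0.09 log2.

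Of 10 genes for ribosome assembly 5 were higher and 0 lower, and all 10 had differences above 0, with a median of 0.61 log2. Among them AT3G12860 rose by 0.86, AT2G18220 by 0.75 and AT5G14520 by 0.66 log2 (adjusted p = 0.0353, 0.0440 and 0.0199). These genes had mean levels of 8.16 to 11.40, where differences were larger over the array as a whole: 8.34% of all probe sets at a level of 8 to 10 were called higher, 8.80% at 10 to 11 and 11.2% at 11 to 12. At an unadjusted p under 0.05, 9 of the 10 assembly genes were higher. So were 11.3% of all probe sets and 2300 of the 11503 brighter ones, which were not matched to these genes in level. With the replicate block none of the 5 assembly, 3 small-subunit and 1 further large-subunit calls remained (0 called in each list).

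**Figure D4:**
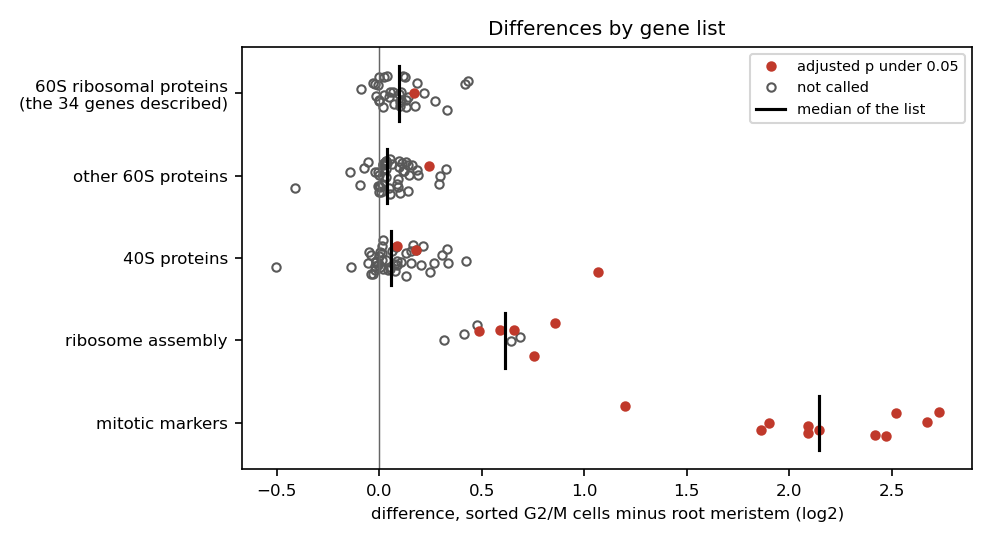
Difference between sorted cells and meristems (x axis, log2) for each measured gene of 5 lists, 1 point per gene, filled where the adjusted p was under 0.05, with the list median as a bar. The 3 ribosomal protein lists centre on 0.10, 0.04 and 0.06, the assembly genes on 0.61 and the mitotic markers on 2.14.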

How the data were processed

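Per the submitters' processing notes the authors processed the 6 arrays with GCRMA; neither its version nor a genome build is given in the sources used here. The table they deposited holds log2 values, used as they are. The 64 control probe sets were left out of the tests, which left 22746. Probe sets were named through the platform annotation: 13513 name 1 gene, 503 several and 8730 are unnamed here; 13484 were matched to a locus through the RefSeq gene table (assembly TAIR10.1), used for names only. Groups were compared with limma 3.58.1 in R 4.3.3 (lmFit, eBayes without trend or robust prior) with no filter, and p-values were adjusted by Benjamini-Hochberg over all probe sets. The prior had 0.391 degrees of freedom beside 4 residual ones. Intervals of differences are 95% intervals of this fit. The fit was tested on simulated data with independent noise and the same SD in both groups, and the outcome is not given here. That simulation held neither the pairing of arrays nor the wider spread of the sorted arrays.

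Deviations of same-numbered arrays from their group means correlated weakly, at 0.12, 0.25 and 0.11 for numbers 1, 2 and 3. Unlike numbers gave -0.23 to 0.05. The 3 deviations within a group sum to 0, so the values for like and unlike numbers are not independent. Because like numbers correlated above 0, the replicate block pairs the arrays by number. The reported fit has no block and does not pair them. Its errors, intervals and adjusted p-values leave this pairing out. With the block 0 of the 34 genes were called. The labels do not say what a number marks. The series calls the 3 samples of a group biological replicates. Arrays have no read depth; their number limits the precision.

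The members and lists were chosen with earlier results of these data known. By the rule for named genes, values per array were given for called members and for both genes of the 6 pairs with the largest change; a few others were added. Up to 3 called genes were named from each other list. Alternatives were the replicate block, a trended robust prior, a filter at the median level, 2 centrings (on 8 reference genes, and on expressed probe sets), a spike-in block, other probe set choices, and leaving out each array.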

Additional observations from a re-analysis of the deposited data

How the results depend on the processing

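The median difference of the 60S genes stayed above 0 under every alternative (0.10 log2 in the reported fit). It was 0.17 with centring on the reference genes, 0.018 with the spike-in block and 0.047 to 0.118 with 1 array left out. In the reported fit 1 of the 60S genes, 1 further 60S gene, 3 40S genes and 5 assembly genes were called higher. These counts were 0, 0, 0 and 0 with the replicate block, 0, 0, 1 and 2 with the trended robust prior, and 1, 0, 1 and 8 with the filter, where the 60S gene was AT4G13170. They were 8, 7, 11 and 9 with centring on the reference genes and 4, 2, 6 and 6 with centring on expressed probe sets. They were 1, 1, 1 and 2 with the spike-in block, and 2 of the 60S genes were called without _s_at and _x_at probe sets. With 1 array left out they ran from 0 to 5, 0 to 3, 0 to 7 and 0 to 7. Calls lower stayed at 0 except for 2 of the 60S genes with the spike-in block, AT2G47610 (-0.07 log2) and AT4G15000 (-0.15 log2), and 0 to 1 further 60S gene with 1 array left out. The spike-in block rests on sorted replicate 1, the single sorted array that shares a block with meristems. Proteins with paralogs on both sides of 0 numbered 2, and 1 with centring on the reference genes, 4 with the spike-in block and 1 to 3 with 1 array left out. Of all calls 38.6% were higher, and 57.7% with centring on the reference genes, which moved the median difference of expressed probe sets from 0.02 to 0.10 log2. All probe set calls numbered 2614, 235 with the replicate block, 1249 with the trended prior and 4476 with that centring. Of all 22746 probe sets 1009 were called higher in the reported fit, 79 with the replicate block and 516 with the trended prior. The centring on reference genes gave 2583, that on expressed probe sets 1316, and leaving out 1 array 323 to 1752. With the filter 1645 of 11503 were called higher, and without _s_at and _x_at probe sets 969 of 21685. No call was reversed. The permutation of paralog pairs with same-numbered arrays kept together (smallest p 0.25, against 0.1) was added after the data were seen. The causes were not tested. Choosing the dimmest probe set of a gene changed nothing, since each had 1. With 3 arrays per group the size of a difference did not by itself set the call: 0.43 (AT1G80750), 0.42 (AT4G13170) and 0.33 log2 (AT3G13580, called without sorted replicate 1) were not called and 0.17 (AT1G08360) was.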
